A study of Homo sapiens with 12 samples.

Results

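The collagen genes are the protein-coding genes of GENCODE v44 whose symbol is COL, a number, A and a number, and 44 of the 63677 Ensembl identifiers in the count tables met this rule. They were followed across 12 RNA-seq libraries of MiaPaca2, an established human cell line of pancreatic ductal adenocarcinoma (PDAC) labelled wild type, in 4 groups of 3 libraries each. All cells were treated for 24 h, with the vehicle DMSO (Con), with 1 µM CPT, the Vitamin D analog calcipotriol, with 2 mM GTA and 1 µM 5-Aza (GTA+5-Aza, epigenetic priming), or with CPT and both priming agents at these doses (CPT+GTA+5-Aza). GTA (glyceryl triacetate) supplies acetate for histone acetylation and 5-Aza (decitabine) inhibits DNA methylation, and the study asked whether priming shifts these cells toward a Vitamin D-susceptible state. MiaPaca2 is 1 cell line, the labels name no stromal cells in the cultures, and no library received GTA or 5-Aza alone, so the effects of the 2 agents cannot be told apart.

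Collagens are trimeric proteins of the extracellular matrix, wound from chains that each come from a separate gene. Fibrillar collagens form the bulk of the fibrous stroma of pancreatic tumors, network collagens build basement membranes, and other classes coat fibrils, anchor epithelia or span the cell membrane. In PDAC the fibrous stroma is known mainly as a product of fibroblasts and stellate cells, and tumor cells add some collagens of their own.

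Each library held 16162490 to 21224665 counts, and 3 counts, the limit that a count of 0 allows, corresponded to 0.143 to 0.183 CPM (counts on TMM-scaled library sizes). The line's epithelial keratins and vimentin were abundant, with 2080 to 2620 CPM summed over KRT8, KRT18, KRT19, EPCAM and CDH1, although EPCAM reached at most 1 count and CDH1 at most 4. These sums were 2230 to 2390 CPM in Con, 2440 to 2620 in GTA+5-Aza, 2080 to 2530 in CPT and 2480 to 2560 in CPT+GTA+5-Aza, and vimentin (VIM) was at 6160 to 6270, 5300 to 5660, 6060 to 6590 and 5430 to 5720 CPM in that order, lower in every primed library than in any unprimed one. Of 8 fibroblast or stellate cell genes, LUM and FAP had no count in any library. The 7 genes other than RGS5 summed to 0.524 to 1.16, 0.85 to 1.24, 0.22 to 0.709 and 1.35 to 1.64 CPM in the same order, with every CPT+GTA+5-Aza library above all others. These sums rest on few counts, and the leading gene differed between the CPT+GTA+5-Aza libraries. It was ACTA2 in replicate 1 (23 counts), THY1 in replicate 2 (14) and PDGFRB in replicate 3 (10). RGS5, a regulator of G-protein signaling known from pericytes, was at 95.5 to 117, 110 to 131, 76.0 to 101 and 107 to 113 CPM. Of the endothelial genes PECAM1 and CDH5 had no count and VWF had 27 over the 12 libraries, and of the immune genes CD3E had none, PTPRC 8 and CD14 147. The part of these markers in the collagen results was not tested. The study's methods speak of independent samples, but the labels do not say whether replicates were separate cultures, so p-values measure only the spread between these libraries, which may be technical.

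Of the 44 collagen genes, 24 passed edgeR's filter on low counts and were tested, and 20 did not. COL1A1, COL9A2 and COL20A1 passed through the primed libraries alone, so the filter itself favored members that are high there, and counts over the tested genes describe the family and do not test it. By class, the tested genes were 10 of 11 fibrillar collagens, 2 of 6 basement membrane network chains, 3 of 5 beaded filament chains, 2 of 4 transmembrane collagens, 3 of 10 fibril-associated collagens (FACITs), 1 of 3 short chain collagens, 1 of 2 multiplexins, the anchoring fibril collagen COL7A1, and COL26A1. COL5A2 and COL1A2 held 35.2% and 32.9% of all collagen counts, and with COL6A1, COL18A1, COL6A3 and COL3A1 they held 88.3%. Summed over all members, the collagen level was 2380 to 2540 CPM in Con, 2200 to 2430 in CPT, 2550 to 2740 in GTA+5-Aza and 2470 to 2540 in CPT+GTA+5-Aza. The GTA+5-Aza libraries lay above the Con libraries, and the CPT+GTA+5-Aza libraries lay above the CPT libraries.

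**Figure D1:**
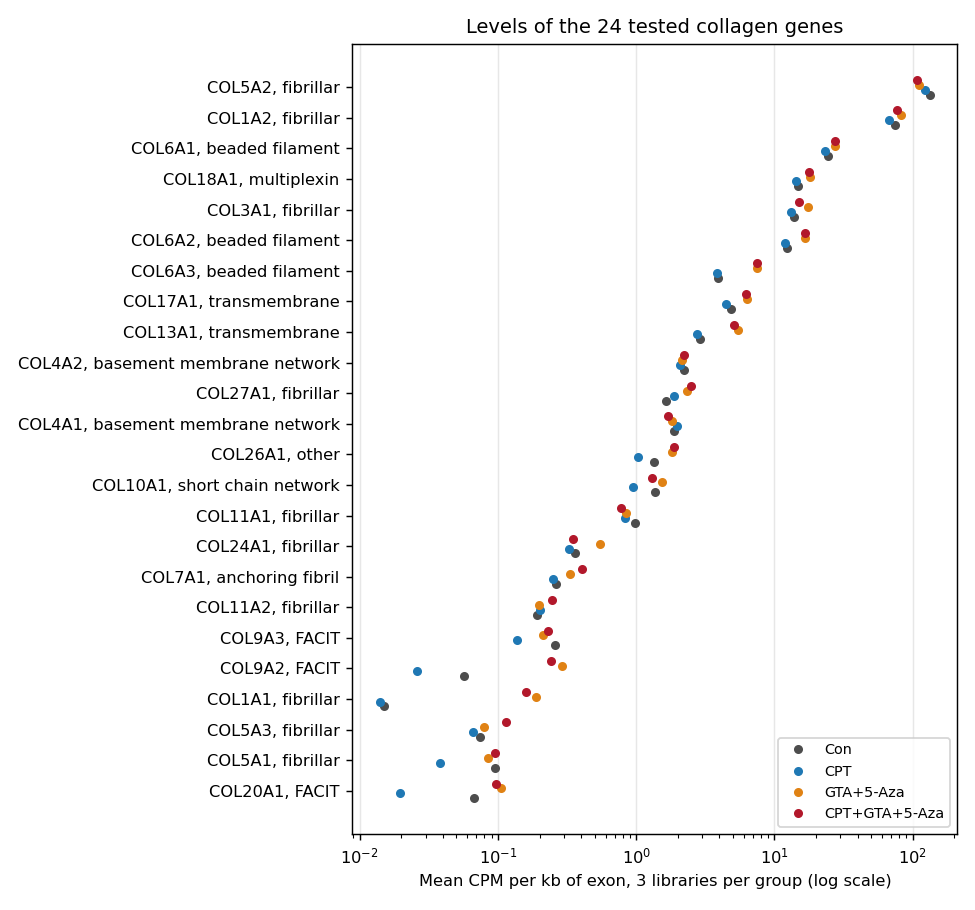
Mean level of the 24 tested collagen genes in each of the 4 groups, as CPM per kb of exon on a log axis, with 3 libraries per group. COL5A2 and COL1A2 lay highest, at 133 and 74.8 CPM per kb in Con, and COL1A1 lay lowest in both unprimed groups.

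Because 5-Aza acts on CpG sites, stretches just upstream of the RefSeq starts of 5 collagen genes are shown. Each CpG is in capitals, and each gene's strand is read 5′ to 3′. The stretches come from the RefSeq promoter table (GRCh38.p14), which held 32 of the 44 members. They cover the part of the 250 bases before the RefSeq start that no GENCODE v44 exon overlaps. COL6A3, COL13A1, COL17A1 and COL6A2 were called higher in primed cells in both comparisons, and COL4A2 in neither. The COL4A2 window lies within the GENCODE span of that gene, upstream of a RefSeq start inside it. The windows are chr2:237414329-237414414 (COL6A3, minus strand), chr10:69801656-69801879 (COL13A1, plus), chr10:104085881-104086130 (COL17A1, minus), chr21:46097862-46098111 (COL6A2, plus) and chr13:110307158-110307257 (COL4A2, plus, which also lies just upstream of COL4A1 on the other strand).
COL6A3: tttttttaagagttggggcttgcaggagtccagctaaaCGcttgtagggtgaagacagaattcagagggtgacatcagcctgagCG
COL13A1: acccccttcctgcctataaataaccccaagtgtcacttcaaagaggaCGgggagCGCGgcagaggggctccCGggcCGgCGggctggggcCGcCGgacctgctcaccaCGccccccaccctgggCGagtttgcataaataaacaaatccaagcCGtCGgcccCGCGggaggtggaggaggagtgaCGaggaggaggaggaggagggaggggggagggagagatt
COL17A1: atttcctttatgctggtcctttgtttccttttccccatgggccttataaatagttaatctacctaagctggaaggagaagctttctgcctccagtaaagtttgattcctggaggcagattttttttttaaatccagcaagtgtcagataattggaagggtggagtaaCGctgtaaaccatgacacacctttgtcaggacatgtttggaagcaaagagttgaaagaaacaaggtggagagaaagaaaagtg
COL6A2: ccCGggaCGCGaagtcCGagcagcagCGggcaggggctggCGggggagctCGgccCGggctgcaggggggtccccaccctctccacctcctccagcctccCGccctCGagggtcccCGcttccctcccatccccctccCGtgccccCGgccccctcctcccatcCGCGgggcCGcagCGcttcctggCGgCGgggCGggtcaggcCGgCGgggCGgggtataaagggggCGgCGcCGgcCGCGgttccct
COL4A2: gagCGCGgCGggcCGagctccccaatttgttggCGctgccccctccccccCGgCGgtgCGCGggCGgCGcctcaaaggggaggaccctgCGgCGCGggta
CpG sites differed widely among them. Over the whole 250 bases, COL17A1 had 1 CpG and COL6A3 had 3, and 2.24% and 5.38% of the 10067 promoters of tested protein-coding genes had as few or fewer. COL13A1 had 16, COL6A2 28 and COL4A2 40, against a median of 21 over those promoters. Of the tested members with a promoter in the table, the 6 called higher on priming without CPT had a median of 14.5 CpG. The other 11 had 16. With CPT the order was reversed, at 19 for the 8 called higher and 11 for the other 9. DNA methylation was not analysed here, so these counts describe the sequence only.

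Priming was compared in a pair of contrasts, on separate libraries. Priming without CPT is GTA+5-Aza against Con, and priming with CPT is the combined treatment against CPT alone. Without CPT, 9 of the 24 tested collagen genes were upregulated and 1 was downregulated with a Benjamini-Hochberg adjusted p under 0.05 by the quasi-likelihood test of edgeR. These were 37.5% and 4.17% of the tested members, against 9.95% and 7.53% of the 17123 genes tested. With CPT, 10 were upregulated and 1 was downregulated, or 41.7% and 4.17%, against 9.57% and 7.39% of all genes tested. By the study's rule for differentially expressed genes (DEGs), read here as over 1.5-fold with P under 0.05 before adjustment, 5 and 8 collagens were higher, beside 6.82% and 6.93% of all genes, and none was lower, beside 1.62% and 1.74%. The libraries of the compared groups did not overlap, with the primed ones higher, for 9 members without CPT and 10 with CPT, or 37.5% and 41.7% of the tested ones, beside 18.1% and 16.4% of all genes, and with the primed ones lower for 1 and 2, beside 16% and 14.4%. The median log2 fold change of the tested members was 0.31 and 0.46, beside 0.0069 and 0.0055 over all genes. Both comparisons called 9 members (37.5%, against 11.7% of all genes) and either called 12 (50.0%, against 22.8%), and 21 of the 24 had the same sign in both (87.5%, against 76.2% of all genes). In bulk RNA, more cells that express a collagen and more RNA per cell cannot be told apart.

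**Figure D2:**
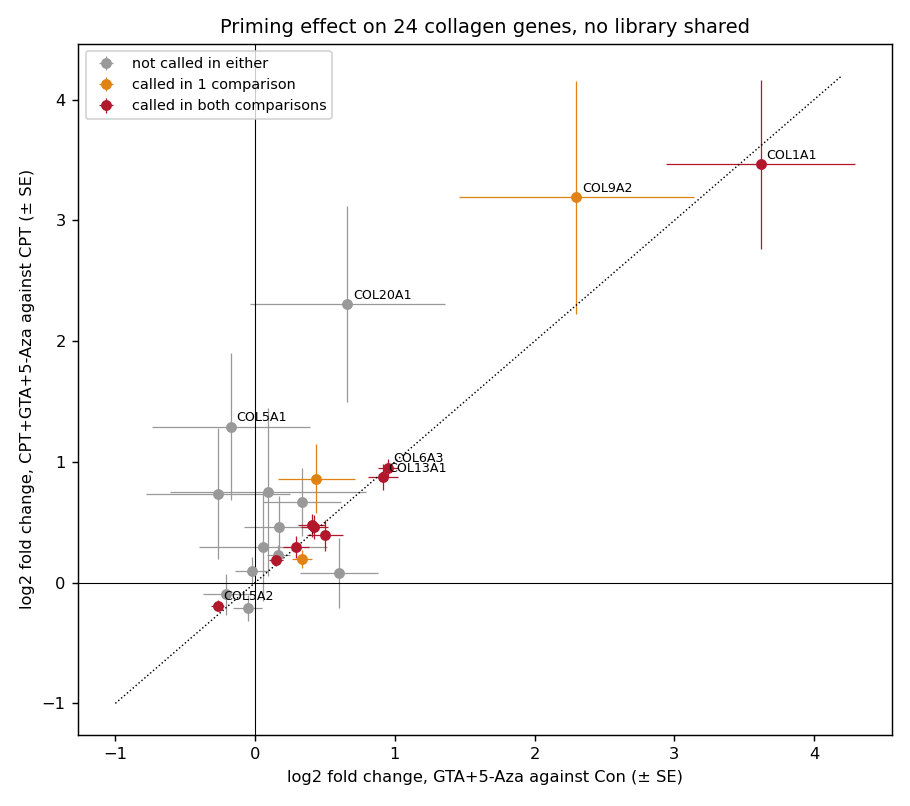
Log2 fold change of the 24 tested collagen genes on priming without CPT (horizontal axis) and with CPT (vertical axis), with bars of 1 standard error from edgeR's fit, colors for the number of comparisons in which a gene was called, and a dotted line at equal values. 21 of the 24 genes had the same sign in both, and COL5A2 was the member called lower.

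Type VI collagen, whose chains assemble into beaded filaments around cells, rose in its alpha 3 and alpha 2 chains in both comparisons, while the alpha 1 chain did not pass. COL6A3 (ENSG00000163359, chr2:237324003-237414328, GRCh38) encodes the long alpha 3 chain. Its level was 81.0, 82.4 and 86.9 CPM in Con and 160, 157 and 166 CPM in GTA+5-Aza, and it was 74.3, 84.3 and 89.0 CPM in CPT and 167, 155 and 157 CPM in CPT+GTA+5-Aza. All primed libraries lay above all unprimed libraries. It rose 1.93-fold in both comparisons, with log2 fold changes of 0.95 ± 0.07 (SE, n = 3 per group; adjusted p = 5.65e-10) and 0.95 ± 0.07 (adjusted p = 4.63e-10) in edgeR's test.

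COL6A2 (ENSG00000142173, chr21:46098112-46132848), the alpha 2 chain, was at 59.2, 70.1 and 68.0 CPM in Con and at 85.2, 81.0 and 98.4 CPM in GTA+5-Aza. With CPT it was at 59.5, 75.9 and 57.4 CPM in CPT and at 83.6, 94.1 and 87.8 CPM in CPT+GTA+5-Aza. The groups did not overlap in either comparison. It rose by 0.42 ± 0.096 on the log2 scale (SE; edgeR adjusted p = 0.00283) and by 0.46 ± 0.097 (adjusted p = 0.00136). COL6A1 (ENSG00000142156, chr21:45981770-46005050), the alpha 1 chain, did not pass the test, at 134 ± 10.8 CPM (SD, n = 3) in Con and 151 ± 16 CPM in GTA+5-Aza, with log2 fold changes of 0.17 ± 0.084 (edgeR adjusted p = 0.185) and 0.23 ± 0.084 (adjusted p = 0.06). Per kb of exon, COL6A1 was 6.24 times the level of COL6A3 in Con and 3.65 times in GTA+5-Aza, and 6.08 and 3.67 times in the groups with CPT. These ratios are of group means and were not tested.

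The transmembrane collagens COL13A1 and COL17A1 rose in both comparisons. COL13A1 (ENSG00000197467, chr10:69801880-69964275) encodes a collagen of cell adhesions. It was at 31.0, 34.8 and 33.5 CPM in Con, 63.4, 55.5 and 68.9 CPM in GTA+5-Aza, 29.4, 38.3 and 28.0 CPM in CPT, and 58.8, 58.8 and 58.2 CPM in CPT+GTA+5-Aza. The 6 primed libraries lay above the 6 unprimed ones. Its fold changes were 1.89 (log2 0.92 ± 0.105 SE, edgeR adjusted p = 7.45e-07) and 1.83 (log2 0.88 ± 0.106, adjusted p = 1.62e-06). COL17A1 (ENSG00000065618, chr10:104031286-104085880), a collagen of the hemidesmosomes that fix epithelial cells to the basement membrane, was at 32.8, 36.1 and 32.0 CPM in Con and 46.1, 45.4 and 42.0 CPM in GTA+5-Aza. In CPT it was at 29.6, 35.2 and 29.3 CPM, and in CPT+GTA+5-Aza at 43.6 ± 1.9 CPM (SD, n = 3), from 41.6 to 45.3. Again no primed library overlapped the unprimed ones. The rise was 1.32-fold (log2 0.40 ± 0.096 SE, edgeR adjusted p = 0.00406) and 1.39-fold (log2 0.48 ± 0.097, adjusted p = 0.00106).

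**Figure D3:**
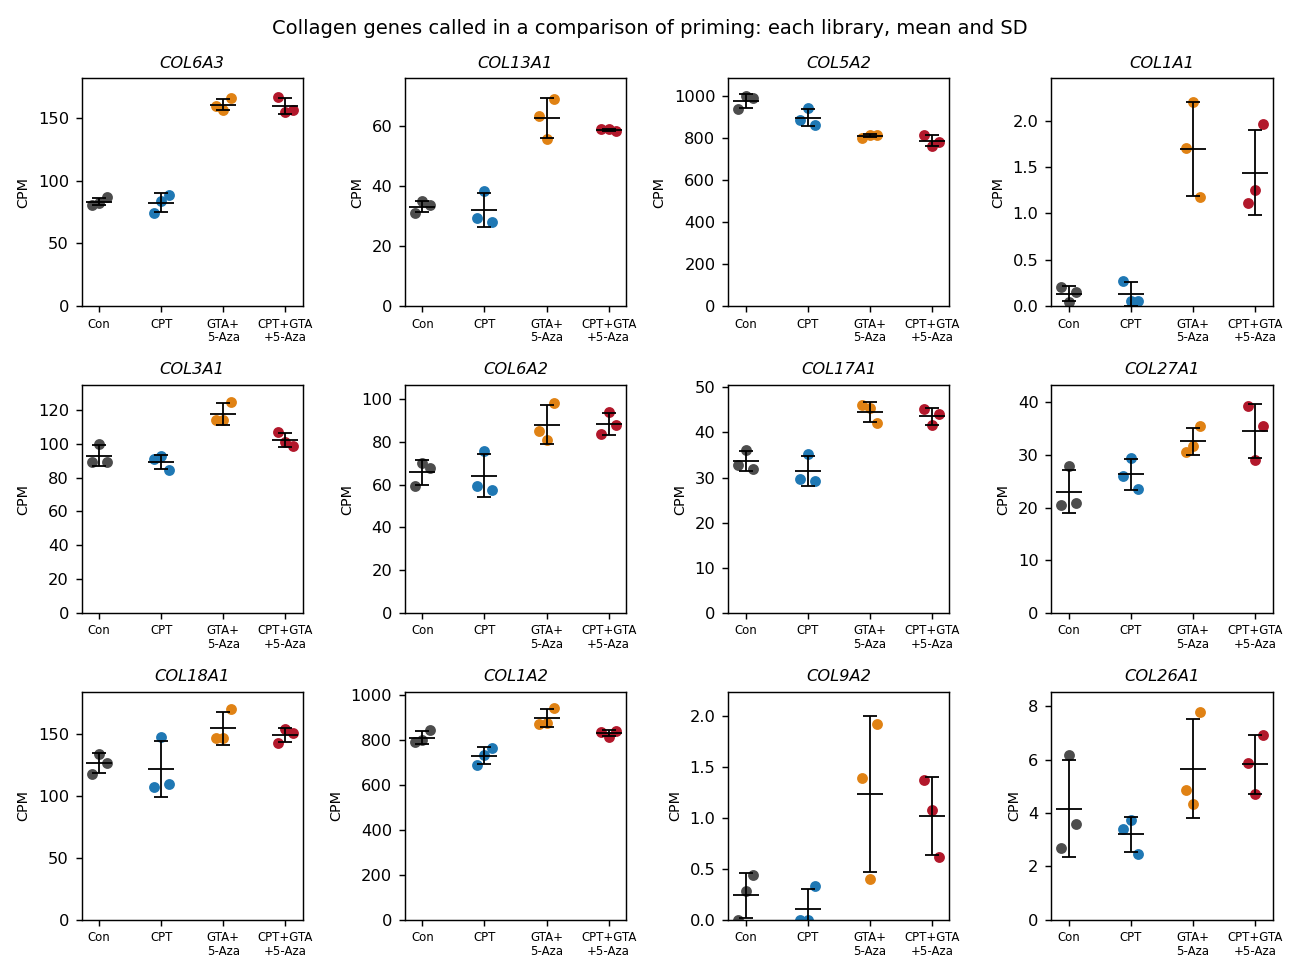
CPM of collagen genes in each of the 12 libraries, with one point per library, a line at the mean of each group of 3 and bars of 1 SD. COL6A3 and COL13A1 sat higher in every primed library than in any unprimed library, and COL5A2 sat lower in GTA+5-Aza than in Con.

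Among fibrillar collagens, COL1A2 and COL5A2 were abundant and moved in opposite directions. COL5A2 (ENSG00000204262, chr2:189031898-189225312), the alpha 2 chain of type V collagen, which sets fibril diameter, was at 936, 1000 and 987 CPM in Con and at 801, 815 and 813 CPM in GTA+5-Aza. It was at 882, 943 and 862 CPM in CPT and 813, 762 and 779 CPM in CPT+GTA+5-Aza. In both comparisons all primed libraries were below their unprimed counterparts. It fell by 0.27 on the log2 scale (SE 0.048, edgeR adjusted p = 0.000249) and by 0.19 (SE 0.048, adjusted p = 0.00631), and was the member called lower. Its neighbor COL3A1 (ENSG00000168542, chr2:188974373-189012746), the type III chain of reticular fibers, lies 19.2 kb away and converges on it. COL3A1 was at 89.3, 100 and 89.5 CPM in Con and at 114, 114 and 125 CPM in GTA+5-Aza. The groups did not overlap, and it rose by 0.34 ± 0.071 on the log2 scale (SE, edgeR adjusted p = 0.00133). With CPT the groups did not overlap either, at 90.7, 92.7 and 84.7 CPM against 107, 101 and 98.5 CPM, but the log2 fold change of 0.20 ± 0.071 did not pass (adjusted p = 0.0602). A test of the difference between these effects gave an unadjusted P of 0.168 in edgeR.

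Type I collagen, the main fibrillar collagen of stroma, is a trimer of alpha 1 and alpha 2 chains. COL1A2 (ENSG00000164692, chr7:94394895-94431227) was at 789, 797 and 841 CPM in Con and 871, 874 and 942 CPM in GTA+5-Aza, and at 688, 734 and 762 CPM in CPT and 833, 813 and 839 CPM in CPT+GTA+5-Aza. The primed libraries lay higher in both comparisons, by 0.15 ± 0.05 on the log2 scale (SE, edgeR adjusted p = 0.041) and by 0.19 ± 0.05 (adjusted p = 0.0102). The first call was lost in 9 of 21 alternative settings, over which its adjusted p ran from 0.00846 to 0.205. COL1A1 (ENSG00000108821, chr17:50184101-50201632), the alpha 1 chain, had 4, 1 and 3 counts in Con and 32, 44 and 21 counts in GTA+5-Aza, and 5, 1 and 1 counts in CPT and 21, 22 and 32 counts in CPT+GTA+5-Aza. Every primed library had more counts than any unprimed one, at 1.7 ± 0.509 CPM (SD, n = 3) in GTA+5-Aza against 0.134 ± 0.0818 CPM in Con. The fitted rise was 12.3-fold (log2 3.62 ± 0.679 SE, edgeR adjusted p = 0.000425) without CPT and log2 3.46 ± 0.698 with CPT (adjusted p = 0.000934). COL1A1 entered the fit through its primed libraries alone, so these p-values are not independent of the filter, and it was called in both comparisons with no filter as well. Per kb of exon, COL1A2 was 5030 times the level of COL1A1 in Con and 439 times in GTA+5-Aza, and 4810 and 479 times in the groups with CPT, so COL1A1 remained far below its partner chain also after priming. COL5A2 was 1390 times COL5A1 in Con, 1300 times in GTA+5-Aza, 3190 times in CPT and 1120 times in CPT+GTA+5-Aza, with COL5A1 at 4 to 30 counts a library.

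COL27A1 (ENSG00000196739, chr9:114155537-114312511), a fibrillar collagen of cartilage, was at 20.5, 27.8 and 20.8 CPM in Con and 30.6, 31.6 and 35.5 CPM in GTA+5-Aza, without overlap. It rose by 0.50 ± 0.129 on the log2 scale (SE, edgeR adjusted p = 0.00739). With CPT the libraries overlapped, at 25.9, 29.5 and 23.6 CPM in CPT and 39.3, 29.1 and 35.4 CPM in CPT+GTA+5-Aza, and the log2 fold change was 0.39 ± 0.128 (adjusted p = 0.0337). COL18A1 (ENSG00000182871, chr21:45405165-45513720), a basement membrane multiplexin whose end fragment is endostatin, was at 118, 134 and 127 CPM in Con and 147, 147 and 170 CPM in GTA+5-Aza. With CPT its libraries overlapped, at 107, 148 and 110 CPM in CPT against 143, 154 and 151 CPM in CPT+GTA+5-Aza. Its log2 fold changes were 0.29 ± 0.09 (SE, edgeR adjusted p = 0.0246) and 0.30 ± 0.09 (adjusted p = 0.0236). It shares 18.5% of its exon bases with SLC19A1 on the other strand, and the strand setting of the counting is not given in the sources used here.

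COL9A2 and COL26A1 were called with CPT and did not pass without it. COL9A2 (ENSG00000049089, chr1:40300489-40317813), a chain of the fibril-associated type IX collagen, had 0, 6 and 9 counts in Con and 26, 8 and 34 in GTA+5-Aza, and 0, 0 and 6 counts in CPT and 26, 19 and 10 in CPT+GTA+5-Aza. Its log2 fold changes were 2.30 ± 0.84 (SE, edgeR adjusted p = 0.0592) and 3.19 ± 0.963 (adjusted p = 0.0219). It entered the fit through its primed libraries alone. CPT replicate 3 held all 6 of its counts in CPT, and without that library, with CPT at 0, the fitted log2 value was 7.29, which is no bound. It was 2.59 at the lowest when 1 library was left out. Without CPT, COL9A2 was called in 5 of 20 alternative settings (adjusted p 0.0165 to 0.265), among them no filter and a stricter filter, and without CPT replicate 2, CPT replicate 3 or GTA+5-Aza replicate 2. COL26A1 (ENSG00000160963, chr7:101362875-101559024), a collagen first described in testis and ovary, was at 2.68, 6.19 and 3.59 CPM in Con and 4.86, 4.35 and 7.78 CPM in GTA+5-Aza, which overlapped. In CPT it was at 3.41, 3.73 and 2.45 CPM and in CPT+GTA+5-Aza at 5.86, 4.71 and 6.91 CPM, which did not. The log2 fold changes were 0.44 ± 0.276 (SE, edgeR adjusted p = 0.311) and 0.86 ± 0.284 (adjusted p = 0.0365). Leaving out Con replicate 2, where COL26A1 was highest in Con, brought the first to 0.84 (adjusted p = 0.0473, the lowest of a range to 0.831). The differences between the effects of priming with and without CPT had unadjusted P values of 0.496 for COL9A2 and 0.296 for COL26A1.

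The basement membrane chains COL4A1 and COL4A2 did not pass in either comparison. COL4A1 (ENSG00000187498, chr13:110148963-110307157) was at 27.5 ± 1.51 CPM (SD, n = 3) in Con and 26.5 ± 1.92 CPM in GTA+5-Aza, and at 28.7 ± 1.33 CPM in CPT and 24.8 ± 1.83 CPM in CPT+GTA+5-Aza. COL4A2 (ENSG00000134871, chr13:110305812-110513209), transcribed head to head with it, was at 42.3 ± 5.29, 41.7 ± 6.02, 39.6 ± 5.82 and 42.4 ± 3.68 CPM in the same order. Their log2 fold changes were -0.05 ± 0.105 (SE) and -0.02 ± 0.118 without CPT, and -0.21 ± 0.105 and 0.10 ± 0.119 with CPT, with edgeR adjusted p of 0.188 to 0.924. The ratio of COL4A2 to COL4A1 per kb of exon stayed between 1.05 and 1.3 over the 4 groups. The remaining tested members, COL5A1, COL5A3, COL7A1, COL9A3, COL10A1, COL11A1, COL11A2, COL20A1 and COL24A1, had group means of 0.216 to 8.9 CPM and did not pass after adjustment. Of these, COL20A1, a FACIT, came nearest, with a log2 fold change of 2.31 ± 0.811 (SE) on priming with CPT (edgeR adjusted p = 0.0501). The libraries overlapped, at 9, 2 and 1 counts in CPT and 25, 28 and 5 in CPT+GTA+5-Aza. Con held 11, 31 and 3 counts and GTA+5-Aza 13, 29 and 24, with a log2 fold change of 0.66 (edgeR adjusted p = 0.588). COL20A1 entered the fit through its primed libraries alone. On priming with CPT it was called in 9 of 20 alternative settings (adjusted p 0.0108 to 0.202). Among them were DESeq2, other scalings, other filters and leaving out Con replicate 2, Con replicate 3, CPT replicate 1 or CPT+GTA+5-Aza replicate 3.

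Fold changes on priming varied with GC content over all tested genes. The longest transcripts of the tested members had a median GC content of 61.4%, against 48.4% over all tested genes. Without CPT, the members called higher had a median of 56.1% and the other tested members 61.8%. With CPT these medians were 61.4% and 60.9%. Over the 2409 tested genes above 60% GC the median log2 fold change on priming was 0.18 without CPT and 0.17 with CPT, and over the other genes it was -0.02 in both. After each library's trend with GC was removed, 6 members were higher and 2 lower on priming without CPT, beside 7.29% and 15.2% of all genes, and 7 were higher and 2 lower with CPT, beside 7.42% and 16.5%. The median log2 fold change of the members was then 0.15 and 0.26, beside -0.06 and -0.07 over all genes. The split of higher against lower calls over all genes thus turned under this scaling, and with library size alone it was 11.8% and 5.3% without CPT.

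COL6A3 kept log2 fold changes of 0.83 in both comparisons without the GC trend, and COL13A1 kept 0.84 and 0.80. COL17A1 kept its call at 0.24 (edgeR adjusted p = 0.0406) and 0.32 (adjusted p = 0.00749), over a range of 0.00101 to 0.0451 and of 7.68e-05 to 0.0117 in all alternative settings. COL1A1, COL1A2 and COL5A2 also kept their calls in both comparisons, as did COL3A1 in the one in which it was called. COL18A1, at 67.2% GC, was left with 0.03 and 0.04 (adjusted p = 0.791 and 0.676), and COL27A1, at 61.3%, with 0.27 and 0.17 (adjusted p = 0.0764 and 0.281). COL6A2, at 66.4%, lost its call without CPT (0.16, adjusted p = 0.0749) and kept it with CPT (0.21, adjusted p = 0.019). COL26A1, at 64.2%, lost its call with CPT (0.62, adjusted p = 0.0792). COL4A2 then passed as lower without CPT (-0.26, adjusted p = 0.0388) and COL4A1 as lower with CPT (-0.36, adjusted p = 0.00625). COL6A1, not called in either comparison, went from 0.17 to -0.08 without CPT and from 0.23 to -0.01 with CPT, and COL4A2 with CPT from 0.10 to -0.13. The part that GC content plays in the calls was not tested beyond these fits.

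**Figure D4:**
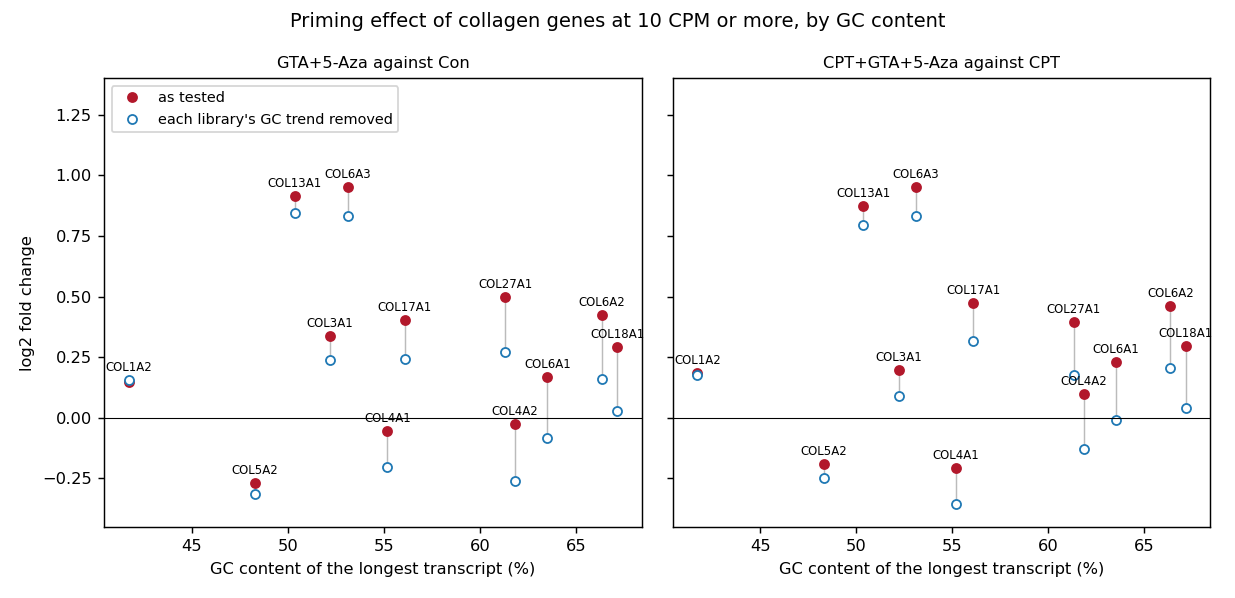
Log2 fold change of the collagen genes at 10 CPM or more in a group on priming, without CPT (left) and with CPT (right), against the GC content of the longest transcript in percent, before and after the GC trend was taken out. COL18A1 and COL6A2, above 60% GC, moved toward 0, COL4A2 came to -0.26 and -0.13, and COL6A3 and COL13A1 kept values of 0.80 to 0.84.

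CPT was then compared with its own control in unprimed cells (CPT against Con) and in primed cells (the combined treatment against GTA+5-Aza), comparisons that share libraries with those of priming. None of the 24 tested collagens passed after adjustment in either by edgeR or DESeq2, and the share called over all genes was 0% in edgeR. At an unadjusted P under 0.05 in edgeR, 4 were lower and 0 higher in unprimed cells, or 16.7% and 0% of the tested members, against 2.43% and 1.85% of all genes. In primed cells 3 were lower and 0 higher, or 12.5% and 0%, against 1.62% and 1.09%. The libraries did not overlap for 1 member in unprimed cells (COL1A2, lower, beside 4.19% of all genes lower and 3.81% higher) and for 3 in primed cells (COL1A2, COL3A1 and COL11A1, all lower, beside 4.73% lower and 4.42% higher). In unprimed cells 21 of the 24 log2 fold changes were below 0 (87.5%, against 49.0% of all genes), with a median of -0.10, which was -0.21 without CPT replicate 2, -0.05 without Con replicate 2 and -0.04 without CPT replicate 3. In primed cells 14 were (58.3%, against 49.5%), with a median of -0.04, which ranged from -0.06 to 0.01 when 1 library was left out and was above 0 only without GTA+5-Aza replicate 3. In the interaction of CPT and priming, the test of whether the CPT effect differed between primed and unprimed cells, 0 members passed after adjustment (0% of all genes), 0 had an unadjusted P under 0.05 (1.33% of all genes higher and 1.31% lower) and 0 met the DEG rule (0.934% and 0.841%).

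COL1A2 was lower in every CPT library than in any Con library, at 688 to 762 against 789 to 841 CPM, a difference of -0.15 ± 0.05 on the log2 scale (SE; edgeR unadjusted P = 0.00522, adjusted p = 0.998). In primed cells its groups did not overlap either, at 833, 813 and 839 against 871, 874 and 942 CPM (log2 -0.11 ± 0.05, unadjusted P = 0.0316, adjusted p = 1.0). COL5A2 had a log2 fold change of -0.12 ± 0.048 in unprimed cells (unadjusted P = 0.0165), with overlapping libraries. COL3A1 in primed cells was at 98.5 to 107 CPM with CPT and 114 to 125 CPM without, a log2 fold change of -0.20 ± 0.071 (unadjusted P = 0.00888), and COL24A1 had -0.65 ± 0.283 (unadjusted P = 0.0303). None of these passed after adjustment. The low COL5A1 and COL20A1 had log2 fold changes of -1.29 ± 0.604 and -1.76 ± 0.822 in unprimed cells (edgeR unadjusted P = 0.0424 and 0.0419). Without Con replicate 2, whose 31 counts were most of those in Con, COL20A1 was at -0.73 (edgeR unadjusted P = 0.442), and without Con replicate 1 COL5A1 was at -0.91 (edgeR unadjusted P = 0.198). The unadjusted P stayed under 0.05 in 11 of 20 alternative settings for COL20A1 and in 17 of 21 for COL5A1. By the DEG rule 2 members were lower in unprimed and 1 in primed cells, beside 1.14% and 0.66% of all genes, and 0 were higher, beside 0.689% and 0.345%.

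**Figure D5:**
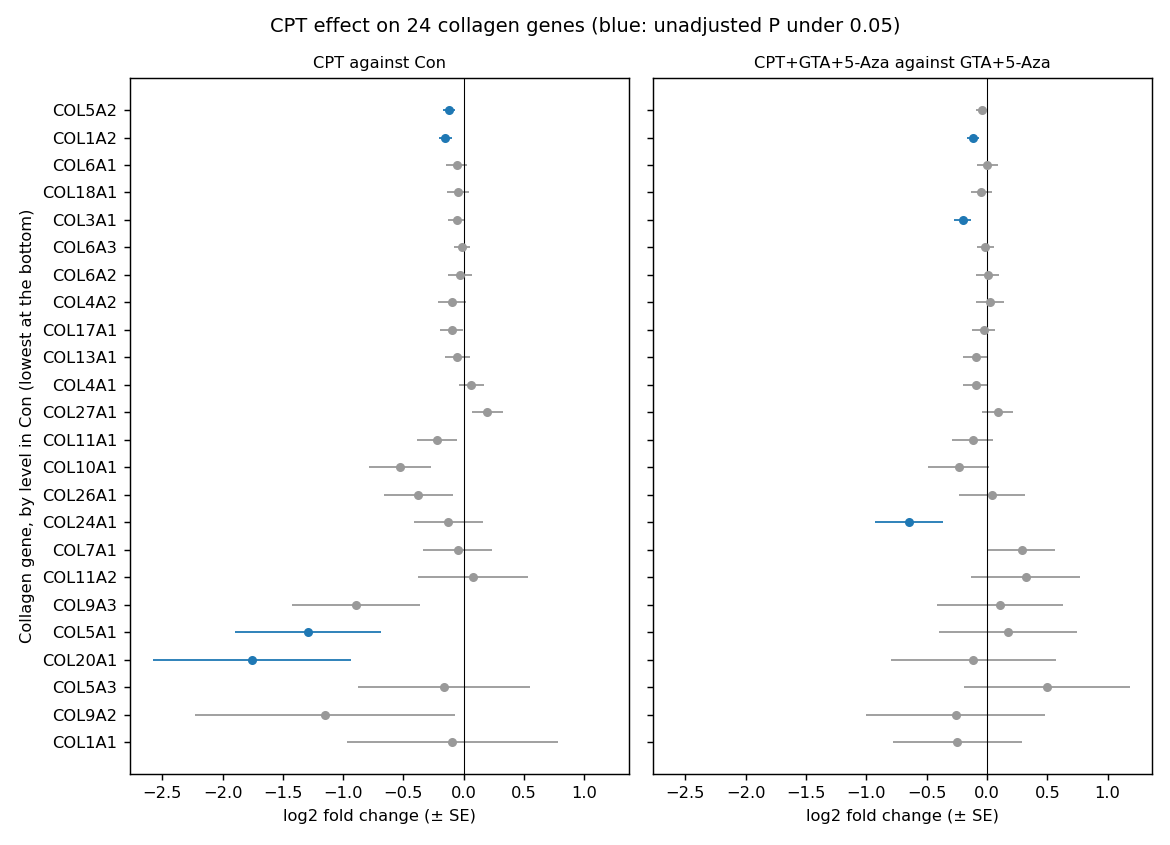
Log2 fold change with CPT of the 24 tested collagen genes in unprimed cells (CPT against Con) and in primed cells (CPT+GTA+5-Aza against GTA+5-Aza), with bars of 1 standard error from edgeR's fit. 21 of 24 values lay below 0 in unprimed cells and 14 in primed cells, and none passed after adjustment.

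The 20 untested collagens had at most 13 counts in any library. Of these, 8 had no count in any library, namely the FACITs COL9A1, COL14A1, COL19A1, COL21A1 and COL22A1, and COL6A5, COL15A1 and COL25A1. COL8A2, a short chain collagen of corneal basement membrane, had 32 counts over the 6 primed libraries, each of which held at least 1, and 6 counts over 2 unprimed ones. COL8A1 had 19 and 32 counts in the primed and unprimed libraries. The basement membrane chains COL4A3, COL4A4 and COL4A6 had 47, 30 and 29 counts over the 12 libraries, and COL4A5 had 7 in 2 unprimed libraries and 0 in the primed ones. Fitted with no filter on low counts, none of the 12 untested members with a count was called in the priming comparisons, with edgeR adjusted p for COL8A2 of 0.505 without CPT and 0.323 with CPT.

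Genes that make, process, break down or bind collagen were taken from 4 lists of non-members. On priming without CPT, 6 of 19 tested genes for modification and folding in the endoplasmic reticulum were upregulated (31.6%) and 1 was downregulated (5.26%) after adjustment in edgeR, beside 9.95% and 7.53% of all genes. P4HA2, a subunit of prolyl 4-hydroxylase, was at 34.5 ± 2.68 CPM (SD, n = 3) in Con and 48.0 ± 3.02 CPM in GTA+5-Aza, a log2 fold change of 0.48 ± 0.093 (SE; adjusted p = 0.000691), without overlap. P3H3, a prolyl hydroxylase family member, rose from 59.1 ± 7.15 to 85.6 ± 7.86 CPM (adjusted p = 0.0033). SERPINH1, the collagen chaperone HSP47, rose from 220 ± 9.38 to 260 ± 15.8 CPM (adjusted p = 0.00667), and P3H4 from 42.8 ± 3.5 to 52.9 ± 2.72 CPM (adjusted p = 0.0263). PLOD3, a lysyl hydroxylase, fell by 0.18 on the log2 scale (adjusted p = 0.0391). The call of PLOD3 was lost with library size alone, with no filter, with the replicate number as a block (adjusted p = 0.0523) and in 8 of the 12 fits that left out 1 library, with an adjusted p of 6.29e-06 to 0.157 over 21 alternatives. With CPT, 2 of the 19 were upregulated (10.5%, against 9.57% of all genes), P4HA2 and P3H3, and 1 was downregulated, P3H2.

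Of 8 tested genes for procollagen processing and crosslinking, PCOLCE and BMP1 rose in both comparisons. PCOLCE, the enhancer of the procollagen C-proteinase, was at 2.46 ± 0.961 CPM (SD, n = 3) in Con and 5.93 ± 1.3 CPM in GTA+5-Aza (log2 1.27 ± 0.272 SE, edgeR adjusted p = 0.0016), and BMP1, that proteinase itself, was at 21.2 ± 0.876 and 27.9 ± 3.11 CPM (log2 0.39 ± 0.116, adjusted p = 0.018). Of 6 tested genes for collagen breakdown, MRC2, the receptor that takes up collagen fragments, rose from 77.1 ± 7.18 to 118 ± 11.4 CPM (adjusted p = 2.28e-05), and TIMP1, an inhibitor of matrix metalloproteinases, from 194 ± 6.28 to 227 ± 10.2 CPM (adjusted p = 0.00721). Both rose with CPT as well. Of 5 tested receptors, DDR1, a receptor tyrosine kinase for collagen, rose from 24.0 ± 2.78 to 41.4 ± 1.51 CPM (log2 0.78 ± 0.113 SE, adjusted p = 1.94e-05), and with CPT both DDR1 and DDR2 rose. Over the 4 lists, 11 of 38 tested genes were higher without CPT (28.9%, against 9.95% of all genes). With CPT, 8 were higher (21.1%, against 9.57%). In each comparison 1 was lower (2.63%, against 7.53% without CPT and 7.39% with CPT). With the GC trend removed, the lists held 7 higher and 8 lower genes without CPT, beside 7.29% and 15.2% of all genes. In both CPT comparisons and in the interaction, 0 genes of the 4 lists were called.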

How the data were processed

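The deposited files hold raw counts per gene, which the authors made by trimming paired-end reads with Trim Galore, aligning them to GRCh38 with HISAT2 2.2.1 and counting with HTSeq. The annotation release and the strand setting are not given in the sources used here. Groups and replicate numbers came from the sample labels. Collagen members, gene lists and tests were chosen with earlier results of these data known.

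Tests used edgeR 4.0.16 and limma 3.58.1 under R 4.3.3, with DESeq2 1.42.0 as the other tool. filterByExpr left 17123 genes, TMM scaling was used, and all 12 libraries entered 1 quasi-likelihood fit (common dispersion 0.0101, 18.3 prior degrees of freedom) with 5 contrasts of group means and Benjamini-Hochberg adjustment over all genes tested. CPM used TMM-scaled library sizes, and CPM per kb used the GENCODE v44 exon union, which joins all isoforms. Symbols and coordinates came from GENCODE v44, which holds 52181 of the identifiers. The scripts were tested on simulated data. The chi-square between replicates was 3.99 to 18.1 per degree of freedom, above sampling noise in every pair. Limits on counts of 0 cover counting error only.

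Named were collagens with an adjusted p under 0.05 in any contrast, at 10 CPM or more in a group, or meeting the DEG rule in both priming or both CPT contrasts, and up to 4 called genes of each list by p in GTA+5-Aza against Con. PLOD3, P3H2, DDR2 and the low collagens were named after their values were seen. Alternatives were other scalings and filters, DESeq2, only the groups compared, the replicate number as a block, removal of the GC trend (smoothing spline with 6 degrees of freedom), and leaving out each library.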

Additional observations from a re-analysis of the deposited data

Results flagged for a closer look

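COL12A1 and COL16A1, fibril-associated collagens outside the tested genes, had counts in primed libraries and none in the 6 unprimed ones. COL12A1 had 22 counts over the 6 primed libraries, with 2, 4 and 0 in GTA+5-Aza and 10, 2 and 4 in CPT+GTA+5-Aza, a level at least 7.88-fold higher than the 3 counts which a total of 0 over the 6 unprimed libraries allows. Fitted with no filter on low counts, its adjusted p in edgeR was 0.265 on priming without CPT and 0.0863 with CPT. COL16A1 had 8 counts, 4 in each of 2 CPT+GTA+5-Aza libraries and none in GTA+5-Aza, at least 2.86-fold higher over the same limit. Its adjusted p in the edgeR fit with no filter was 0.294 on priming with CPT. Both limits take the primed counts as exact, and both genes were picked for having no unprimed count.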

How the results depend on the processing

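Over 21 alternative settings no called collagen changed its sign where it was called, while some uncalled ones did, among them COL4A2 and COL6A1. COL6A3, COL13A1, COL17A1, COL1A1 and COL5A2 in both priming comparisons, COL3A1 in GTA+5-Aza against Con and COL6A2 in CPT+GTA+5-Aza against CPT passed in all of them. Leaving out 1 library at a time gave 7 to 11 called collagens in GTA+5-Aza against Con (10 with all libraries) and 7 to 13 in CPT+GTA+5-Aza against CPT (11), the lowest without CPT replicate 1 in the latter. By the DEG rule these ranges were 3 to 6 in GTA+5-Aza against Con (5), 1 to 2 in CPT against Con (2), 0 to 1 in CPT+GTA+5-Aza against GTA+5-Aza (1) and 0 to 2 in the interaction (0), which had 1 with no filter on low counts. The genes of the 4 pathway lists ran from 7 to 15 (12), with 7 where either Con replicate 1 or GTA+5-Aza replicate 1 was left out. In GTA+5-Aza against Con, COL18A1 (adjusted p 0.0717 to 0.16) and COL27A1 (0.0508 to 0.0567) were lost without Con replicate 1 or 3 or GTA+5-Aza replicate 3, and COL1A2 (0.053 to 0.205) without Con replicate 1 or 2, GTA+5-Aza replicate 1 or 3 or any CPT+GTA+5-Aza library. In CPT+GTA+5-Aza against CPT, COL18A1, COL26A1, COL27A1, COL9A2 and COL1A2 were lost without CPT replicate 1 (0.075 to 0.18), and all but COL1A2 also without other libraries of that comparison. In CPT against Con, the unadjusted P of COL1A2 in edgeR reached 0.0531 without CPT replicate 1. In primed cells it rose above 0.05, up to 0.166, without GTA+5-Aza replicate 3 or CPT+GTA+5-Aza replicate 1 or 2. That of COL5A2 in unprimed cells rose above 0.05 without Con replicate 2 (0.0679), Con replicate 3 or CPT replicate 1 or 3. For COL3A1 in primed cells it reached 0.0573 without GTA+5-Aza replicate 3. For COL24A1 in primed cells it rose above 0.05 without GTA+5-Aza replicate 2 (0.234), GTA+5-Aza replicate 3 or any CPT+GTA+5-Aza library. COL6A1 was called with CPT in 4 settings (adjusted p 0.00134 to 0.936 over all), COL3A1 in 3 (0.0238 to 0.332) and COL7A1 without CPT replicate 2 (0.0115). The cause was not tested.

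Same-numbered libraries of different groups deviated together with correlations of -0.164 to 0.209, and other pairs with -0.182 to 0.151, so the replicate numbers were not taken to pair the samples. With the replicate number as a block, 10 and 11 collagens were called in the priming comparisons, with no collagen call changed and PLOD3 lost from the lists (11 genes left, none lower), and 1 met the DEG rule in CPT against Con, as with the block and the GC trend removed together (1) and with only the groups compared (1). Low depth limits COL1A1, COL9A2 and the untested members.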

Other observations

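Some collagen genes lie next to each other or near chromosome ends. COL18A1, COL6A1 and COL6A2 follow one another on chromosome 21 with gaps of 468 and 93.1 kb, and COL4A1 and COL4A2 overlap by 1.34 kb at their starts on chromosome 13. Of the 44 members, 10 lie within 5 Mb of a chromosome end, and 9 of these were tested. Of the 9 collagens upregulated in GTA+5-Aza against Con, 3 lay within that distance, and of the other 15 tested collagens 6 did. Genes above 60% GC deviated from their mean over all libraries by a median log2 of -0.12 to 0.01 in the Con libraries, -0.18 to 0.06 in CPT, -0.01 to 0.19 in GTA+5-Aza and 0.04 to 0.12 in CPT+GTA+5-Aza, so libraries of different groups overlapped.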
